A study of Homo sapiens with 8 samples.

Results

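The 9 genes described here encode enzymes of the pentose phosphate pathway and the synthetases that use its ribose product: PGLS, PGD, H6PD, RPIA, RPE, TKT, TALDO1, PRPS1 and PRPS2. They were chosen by symbol from what the enzymes do, and with earlier results of these data known. They were matched to probes through the transcript accessions of the array design, and are 9 of 19046 genes kept for the fit. All 9 had a probe on the array, and 8 of them were well above background, by the call of the scanner software, on all 8 arrays; H6PD was the exception.

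Gene expression was measured in A549 cells, an established line from a human lung carcinoma, on Agilent whole-genome arrays read in a single colour. In the EEDS series, cells received the vehicle or 1.25, 5 or 20 µg/mL of EEDS, the ethanol extract of Descurainia sophia seeds. In the helveticoside series, cells received the vehicle or 3.75, 15 or 60 nM of helveticoside, a cardiac glycoside present in that extract. The concentrations that the paper reports to inhibit growth of A549 cells lie below both top doses and also below the middle EEDS dose. Each series had its own vehicle control, and the methods give DMSO as the solvent in which EEDS was dissolved. RNA from 3 cultures was pooled for each array and each dose had 1 array, so no single dose could be tested, and precision is limited by how few arrays there are. Exposure before RNA extraction is 24 h in the study's methods but 48 h in the labels, and every group was a culture of the same single line.

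The pentose phosphate pathway branches from glycolysis at glucose 6-phosphate. Its oxidative branch makes NADPH, the reductant for fatty acid synthesis and for glutathione, and ends at ribulose 5-phosphate. The nonoxidative branch interconverts sugar phosphates and links ribose 5-phosphate with glycolysis, and the PRPP synthetases turn ribose 5-phosphate into phosphoribosyl pyrophosphate, the ribose donor of nucleotide synthesis. A549 cells are known for a defect in KEAP1 that leaves the antioxidant factor NRF2 active, and PGD, TKT and TALDO1 are among the genes that NRF2 is known to drive.

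Probe spots had a median signal of 182 to 214 over a local background of 27 to 28 on the EEDS arrays and 223 to 278 over 32.5 to 34 on the helveticoside arrays. No probe spot was saturated. All 6 epithelial markers examined were well above background on every array, whereas of 4 alveolar type II markers only NAPSA was, and SFTPB and NKX2-1 were so on none. Of 4 leukocyte markers, CD3E was well above background on no array, while PTPRC, CD79A and CD14 were on all 8. Of the endothelial markers PECAM1 and VWF were well above background on no array and CDH5 was on all 8, and of the fibroblast markers DCN was on none and COL1A1 on all 8. All signals below are quantile-normalized over the 8 arrays, and ratios are log2 of the treated signal over the vehicle signal of the same series. In such whole-culture RNA, fewer cells of a type and less RNA per cell cannot be told apart.

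PGD and PGLS fell with dose in both series, and no other enzyme gene passed the test of a dose trend in either direction. At the top doses PGD was 3.71-fold lower after EEDS and 4.64-fold lower after helveticoside, and PGLS was 2.39-fold and 2.24-fold lower. The nonoxidative and PRPP synthetase genes had top-dose log2 ratios between -0.56 and 0.53, or between -0.63 and 0.74 with the arrays scaled to their 75th percentile. The sugar-isomerizing genes RPIA and RPE and the synthetase PRPS1 had top-dose ratios above 0, while TKT, TALDO1 and PRPS2 had ratios below 0.

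**Figure D1:**
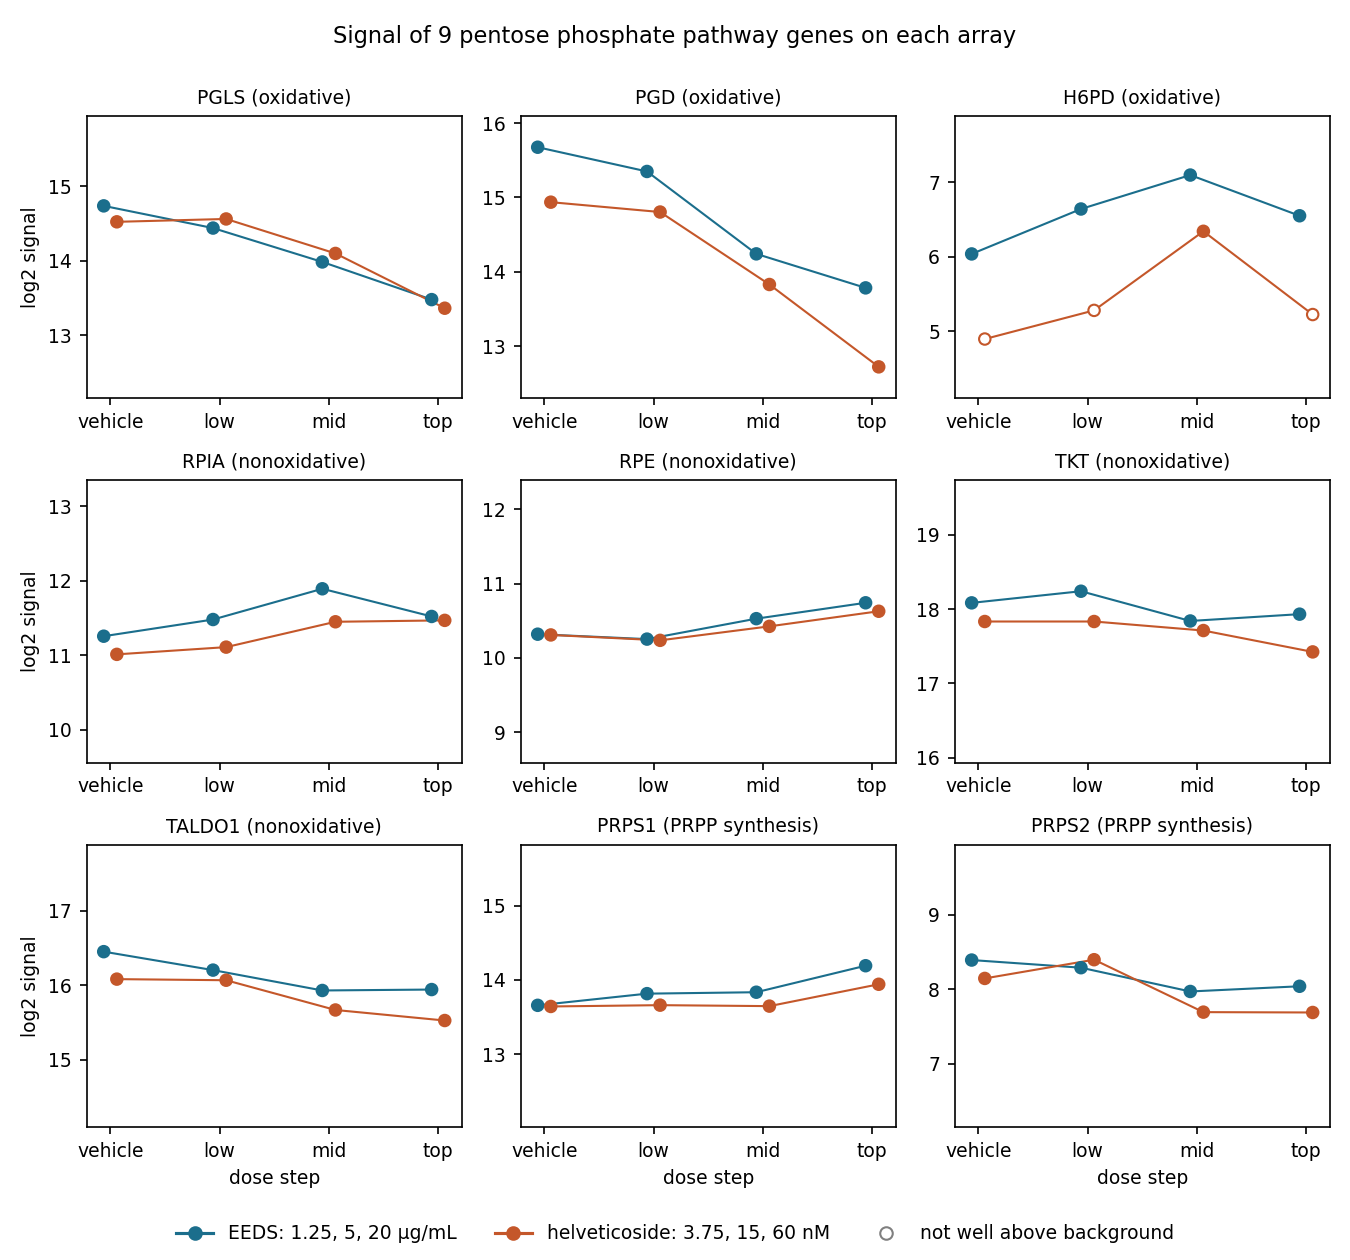
Each panel plots 1 gene, with the log2 quantile-normalized signal on the vertical axis (every panel spans the same range) against the dose step, from the vehicle to the top dose. Each point is 1 array, lines join the arrays of a series, and open points were not well above background; PGD and PGLS fall by more than 1 log2 unit in both series, H6PD peaks at the middle dose, and the other 6 genes stay within 0.7 of their vehicle.

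Of the oxidative branch, PGD encodes 6-phosphogluconate dehydrogenase, which makes NADPH and ribulose 5-phosphate. Its signal was 52300 on the EEDS vehicle array and 41725, 19362 and 14104 at 1.25, 5 and 20 µg/mL. On the helveticoside arrays it was 31344 with the vehicle and 28594, 14554 and 6756 at 3.75, 15 and 60 nM. In each series every treated array lay below its vehicle, except that the 3.75 nM array had a log2 ratio of 0.11 with 75th percentile scaling. Each higher dose lay below the one before. The log2 ratios were -0.33, -1.43 and -1.89 for EEDS and -0.13, -1.11 and -2.21 for helveticoside. At 20 µg/mL, 4.99% of all genes had a ratio as low as that of PGD, and at 60 nM 2.95% had.

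A dose trend was fitted with limma over all 8 arrays as a line on the dose step (0 to 3) within each series, and p-values were adjusted over all genes by the Benjamini-Hochberg procedure. The PGD slope was -0.68 log2 units per step for EEDS (SE 0.12, limma adjusted p = 0.0249) and -0.76 for helveticoside (SE 0.12, limma adjusted p = 0.0253). The same line left a residual SD of 0.30 for PGD. The vehicle arrays themselves differed, with PGD 0.74 lower on the log2 scale in the helveticoside vehicle than in the EEDS vehicle. Over all genes the SD of that difference was 0.65, and 10.4% of genes differed more than 2-fold between the controls. Both top-dose ratios of PGD were larger than the difference between its controls.

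PGLS encodes 6-phosphogluconolactonase, which opens the lactone ring one step before PGD. Its signal was 27338 with the EEDS vehicle and 22231, 16212 and 11415 with rising EEDS. With the helveticoside vehicle it was 23562, and with rising helveticoside 24200, 17549 and 10535. The lowest helveticoside dose lay slightly above its vehicle, and the other 5 treated arrays lay below theirs. The log2 ratios were -0.30, -0.75 and -1.26 for EEDS and 0.04, -0.43 and -1.16 for helveticoside. The slope was -0.42 for EEDS (SE 0.08, limma adjusted p = 0.0308) and -0.39 for helveticoside (SE 0.08, limma adjusted p = 0.0417). The PGLS signal of the helveticoside vehicle was 0.21 log2 units below that of the EEDS vehicle.

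Both calls rest on the whole dose series. With each series fitted alone, or without the lowest, the middle or the top dose of each series, limma called 0 of the 9 genes and 0 of all 19046 genes lower or higher in either series. Under those alternatives 5 genes at most, PGD always among them, had an unadjusted p under 0.05 in a series, beside 17.1% to 28.4% of all genes. The slope of PGD stayed between -0.78 and -0.55. Without the top doses the helveticoside slope of PGLS was -0.21. With 75th percentile scaling of the arrays in place of quantile normalization, PGD still passed for both agents, but PGLS had an adjusted p of 0.0561 for EEDS and 0.0875 for helveticoside. That scaling moved the median ratio of all genes at the top doses to -0.36 and -0.18.

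H6PD encodes hexose-6-phosphate dehydrogenase, which carries out the first oxidative steps inside the endoplasmic reticulum. On the EEDS arrays its signal was 65.7 with the vehicle and 99.9, 137 and 93.8 with rising dose, and all 4 were well above background. On the helveticoside arrays it was 29.7 with the vehicle, 38.8 at 3.75 nM, 81.1 at 15 nM and 37.4 at 60 nM. Of these only the array of 15 nM was well above background, at least 1.73-fold higher than the vehicle. That bound sets the signal of 81.1 against 46.9, the dimmest well-above-background probe on the vehicle array. The EEDS ratios were 0.60, 1.06 and 0.51, so the middle dose was highest in both series. The slopes of 0.20 for EEDS (SE 0.23, limma adjusted p = 0.657) and 0.21 for helveticoside (SE 0.23, limma adjusted p = 0.670) did not pass. The ratio at 20 µg/mL was -0.01 with 75th percentile scaling, the only sign that changed among the top-dose ratios of the 9 genes under the alternatives tried.

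The genomic bases just upstream of the annotated start are shown for PGD and PGLS, the genes that fell, and for RPE, whose window holds the same motif as that of PGD. The windows are the 250 bases before the start, read 5′ to 3′ on the strand of the gene, from RefSeq sequence of build GRCh38.p14. They lie at chr1:10398814-10399063 (+) for PGD, chr19:17511399-17511648 (+) for PGLS and chr2:210002388-210002637 (+) for RPE. Capitals mark the core of the antioxidant response element, the site that NRF2 binds, searched as TGACNNNGC on both strands.
PGD: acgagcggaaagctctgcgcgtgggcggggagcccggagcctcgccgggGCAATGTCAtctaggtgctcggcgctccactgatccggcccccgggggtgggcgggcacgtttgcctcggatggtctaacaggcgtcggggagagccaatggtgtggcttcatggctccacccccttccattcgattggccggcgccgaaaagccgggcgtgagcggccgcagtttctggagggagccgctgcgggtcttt
PGLS: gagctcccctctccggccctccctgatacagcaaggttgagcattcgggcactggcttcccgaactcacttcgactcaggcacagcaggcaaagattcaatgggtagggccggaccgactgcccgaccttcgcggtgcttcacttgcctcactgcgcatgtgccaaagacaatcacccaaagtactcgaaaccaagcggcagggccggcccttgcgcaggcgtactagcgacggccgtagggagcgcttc
RPE: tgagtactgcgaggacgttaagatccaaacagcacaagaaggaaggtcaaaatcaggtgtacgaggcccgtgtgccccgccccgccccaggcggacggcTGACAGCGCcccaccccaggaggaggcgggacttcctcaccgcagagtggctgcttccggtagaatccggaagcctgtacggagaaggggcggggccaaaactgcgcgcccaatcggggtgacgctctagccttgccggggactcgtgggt
The core was present in the windows of PGD, where it lies on the opposite strand 193 to 201 bases before the start, and of RPE, 143 to 151 bases before the start. It was present in 2 of the 9 windows and in 10.9% of 35116 RefSeq windows of the same length. The E-box CACGTG, the cAMP response element TGACGTCA and the AP-1 element TGANTCA, again on both strands, were in 0 of the 9 windows and in 6.34%, 1.65% and 6.57% of all windows. The GC box GGGCGG was in 7 of the 9, all but PGLS and H6PD, and in 42.6% of all. The 7 windows hold 60% (RPIA) to 78.4% (TALDO1) G and C, above the median of 58% over all windows. PGLS holds 61.6% and H6PD 44.8%, and the part of base composition was not tested. PGD and RPE, which share the core, had slopes of opposite sign, and the slope of RPE did not pass the test. The part of the core in these slopes was not tested.

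Of the nonoxidative branch, RPIA encodes the isomerase that makes ribose 5-phosphate from ribulose 5-phosphate. Its signal was 2444 with the EEDS vehicle and 2855, 3802 and 2938 with rising EEDS, and 2064 with the helveticoside vehicle and 2208, 2796 and 2833 with rising helveticoside. All 6 treated arrays lay above their vehicle. The slopes of 0.12 (SE 0.08, limma adjusted p = 0.391) and 0.17 (SE 0.08, limma adjusted p = 0.248) did not pass.

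RPE encodes the epimerase that makes xylulose 5-phosphate from the same substrate. On the EEDS arrays its signal was 1278 with the vehicle and 1221, 1477 and 1712 with rising dose. On the helveticoside arrays it was 1269 with the vehicle and 1207, 1375 and 1583 with rising dose. The lowest dose of each agent lay below its vehicle and the other doses above. The vehicle arrays differed by 0.01 log2 units, and the top-dose ratios were 0.42 and 0.32. The slope was 0.15 for EEDS (SE 0.06, limma adjusted p = 0.133) and 0.11 for helveticoside (SE 0.06, limma adjusted p = 0.267).

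TKT encodes transketolase, the thiamine-dependent enzyme that moves carbon pairs between sugar phosphates. Its signal was 277750 with the EEDS vehicle and 309562, 234625 and 250000 with rising EEDS. With helveticoside it was 233456 on the vehicle array, the same at 3.75 nM because the probe held the same rank on both arrays, and 214625 and 175875 at the higher doses. The lowest EEDS dose was above its vehicle and the other EEDS doses were below it, but with 75th percentile scaling the log2 ratio was -0.03 at 1.25 µg/mL and 0.12 at 15 nM. The top-dose ratios were -0.15 and -0.41, and the slopes of -0.09 (SE 0.06, limma adjusted p = 0.364) and -0.13 (SE 0.06, limma adjusted p = 0.183) did not pass.

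TALDO1 encodes transaldolase, which works beside transketolase. Its signal was 89658 with the EEDS vehicle and 75500, 62449 and 62988 with rising EEDS, and 69412 with the helveticoside vehicle and 68700, 52071 and 47201 with rising helveticoside. Every treated array lay below its vehicle, although with 75th percentile scaling the log2 ratio at 3.75 nM was 0.26. The top-dose ratios were -0.51 and -0.56. The slope was -0.18 for EEDS (SE 0.05, limma adjusted p = 0.0604) and -0.21 for helveticoside (SE 0.05, limma adjusted p = 0.0514), close to the threshold on its far side. TALDO1 passed for both agents with the signal as scanned, with normexp correction, with the authors' processed values and with only genes well above background on all 8 arrays fitted. The vehicle of the helveticoside series was 0.37 log2 units below that of the EEDS series for this gene.

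The PRPP synthetases PRPS1 and PRPS2 make phosphoribosyl pyrophosphate from ribose 5-phosphate and ATP. The signal of PRPS1 was 12934 with the EEDS vehicle and 14421, 14614 and 18708 with rising EEDS, and 12798 with the helveticoside vehicle and 12954, 12838 and 15738 with rising helveticoside. All 6 treated arrays lay above their vehicle, the lower helveticoside doses by no more than 0.02 log2 units. The slope was 0.16 for EEDS (SE 0.05, limma adjusted p = 0.0917) and 0.09 for helveticoside (SE 0.05, limma adjusted p = 0.335), and with 75th percentile scaling the EEDS slope passed (limma adjusted p = 0.0357). A dimmer PRPS1 probe gave log2 ratios of 0.13, 0.40 and 0.66 for EEDS and -0.03, 0.19 and 0.47 for helveticoside, against 0.16, 0.18 and 0.53 and 0.02, 0.00 and 0.30 with the probe used.

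The signal of PRPS2 was 336 with the EEDS vehicle and 313, 251 and 263 with rising EEDS. It was 283 with the helveticoside vehicle and 337, 207 and 206 with rising helveticoside. The 3.75 nM array lay above its vehicle and the other 5 treated arrays lay below. The top-dose ratios were -0.35 and -0.46, opposite in sign to those of PRPS1. The slopes of -0.14 (SE 0.09, limma adjusted p = 0.383) and -0.21 (SE 0.09, limma adjusted p = 0.214) did not pass.

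Over the 9 genes, 2 fell (PGD and PGLS) and 0 rose in the EEDS trend, beside 7.85% of all genes that fell and 7.27% that rose. In the helveticoside trend the same 2 fell and 0 rose, beside 5.8% of all genes that fell and 5.48% that rose. At an unadjusted p under 0.05 in the same limma fit, 3 of the 9 had falling EEDS slopes (PGD, PGLS and TALDO1) and 2 rising ones (RPE and PRPS1), beside 33.4% of all genes in either direction. For helveticoside the same 3 had falling slopes and 0 rising ones, beside 29.8% of all genes. At 20 µg/mL EEDS, 2 of the 9 were more than 2-fold lower and 0 more than 2-fold higher, where 14.5% of all genes were lower and 13.3% higher by that much. At 60 nM helveticoside the counts were also 2 and 0, where 12.8% and 10.8% of all genes were lower and higher. The 2 calls describe PGD and PGLS, and no statement on the pathway as a whole was drawn from so few genes.

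The median log2 ratio of the 9 genes was -0.07, -0.24 and -0.15 with rising EEDS, beside 0.01, 0.01 and 0.02 for all genes. With rising helveticoside it was 0.02, -0.12 and -0.41, beside 0.01, -0.04 and -0.004. Of the 9 ratios, 5 were below 0 at each EEDS dose and at the upper 2 helveticoside doses, and 3 were at 3.75 nM. Over all genes, 44.6%, 45.3% and 45.3% were below 0 with rising EEDS and 45.3%, 57.9% and 50.9% with rising helveticoside. At both top doses the ratios of PGD, PGLS, TKT, TALDO1 and PRPS2 were below 0 and those of RPIA, RPE, PRPS1 and H6PD above, but H6PD was not well above background at 60 nM and its EEDS ratio was -0.01 with 75th percentile scaling. With 75th percentile scaling the median was -0.47 at 20 µg/mL.

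**Figure D2:**
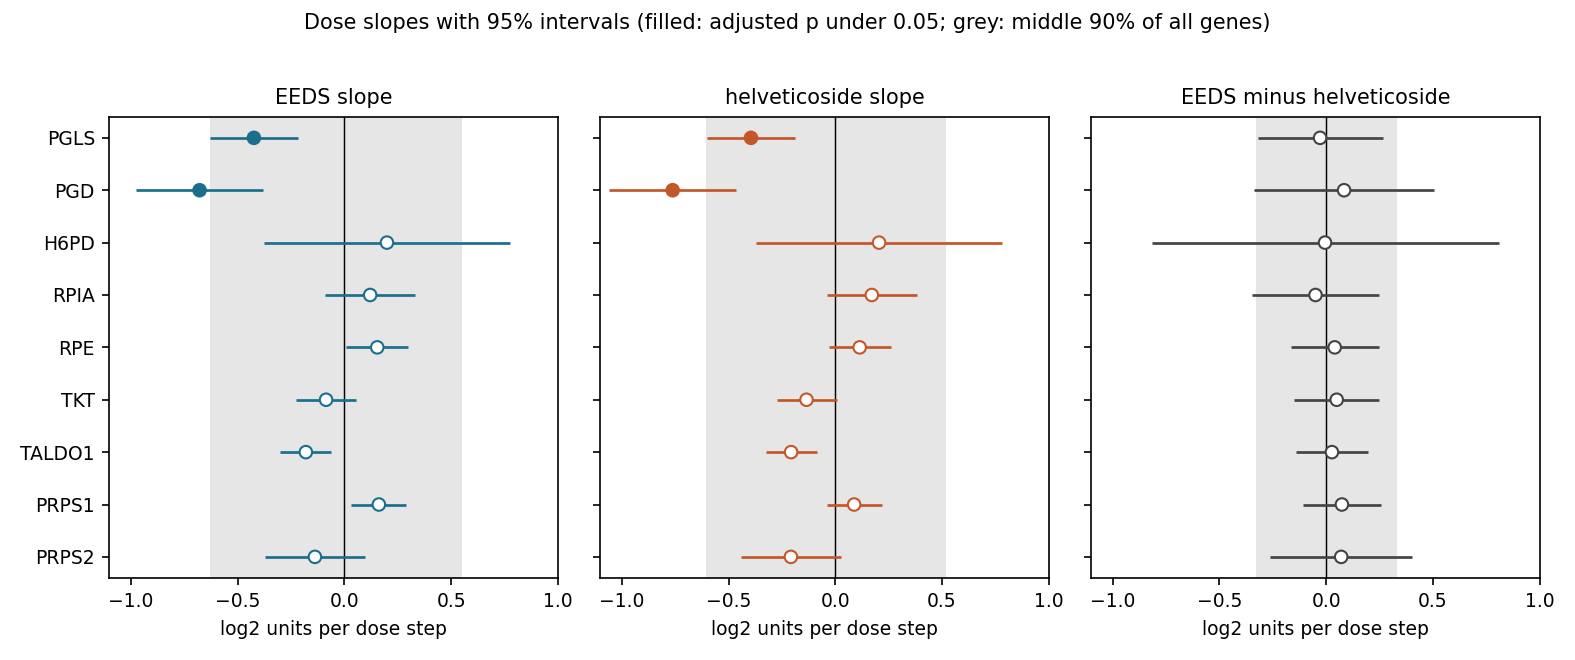
Slopes of the 9 genes in log2 units per dose step for EEDS, for helveticoside and for their difference, with 95% intervals from the limma fit over 8 arrays; filled points passed an adjusted p of 0.05 and the grey band holds the middle 90% of the slopes of all genes. PGD, at -0.68 and -0.76, lies outside the band for both agents, and all intervals of the difference include 0.

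The helveticoside doses were not chosen here to match the EEDS doses, so the slopes compare steps of each dose series and not equal amounts of the glycoside. The difference between the EEDS and the helveticoside slope was tested for each of the 9 genes in the same fit. None passed (0 of 9), and 0.0% of all genes did, 525 of them having an unadjusted limma p under 0.05. For PGD the EEDS slope minus the helveticoside slope was 0.08 with a 95% interval from -0.34 to 0.51. For PGLS it was -0.03 with an interval from -0.32 to 0.26, and for TALDO1 0.03 with an interval from -0.14 to 0.20. The interval was widest for H6PD, from -0.82 to 0.81. Differences of up to these bounds could not be told from 0 with these arrays.

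The patterns over the arrays were also compared with each other as a description, on log2 signals centred within each series. Against PGD, Pearson's r over the 8 arrays was 0.984 for PGLS, 0.955 for TALDO1, 0.890 for TKT and 0.858 for PRPS2. It was -0.772 for RPIA, -0.832 for PRPS1 and -0.939 for RPE. Among 11498 genes well above background on all 8 arrays, those most like PGD were OAZ1 (r = 0.999), BCAS1, SYT12 and CCDC106 (r = 0.998 each) and TMC5 (r = 0.997). Their top-dose ratios ran from -4.40 for BCAS1 to -1.65 for OAZ1 with EEDS and from -4.70 to -1.81 with helveticoside. These points share the same doses, and r is blind to the size of a change.

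Among 22 other genes of the pathway and its links with glycolysis, 21 were matched to a probe and 14 were well above background on all 8 arrays. In the EEDS trend 4 fell and 1 rose, and in the helveticoside trend 4 fell and 2 rose. Over all genes, 7.85% fell and 7.27% rose with EEDS, and 5.8% fell and 5.48% rose with helveticoside. PFKM, the muscle form of phosphofructokinase, fell with slopes of -0.43 and -0.40 (limma adjusted p = 0.0145 and 0.0195). PFKP, the platelet form, rose with slopes of 0.44 for both agents (limma adjusted p = 0.0190 and 0.0237). The PFKP signal went from 42509 with the EEDS vehicle to 102187 at 20 µg/mL and from 31719 with the helveticoside vehicle to 74600 at 60 nM. The PFKM signal went from 5944 to 2386 and from 5181 to 2299 over the same arrays, so these isoform genes of one glycolytic enzyme moved in opposite directions. PFKL, another isoform gene, was named after its values were seen. It was 3.29-fold lower at 20 µg/mL and 1.61-fold lower at 60 nM, and its slopes of -0.50 and -0.19 did not pass (limma adjusted p = 0.0508 and 0.389).

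IDNK, a gluconate kinase whose product is the substrate of PGD, fell with slopes of -0.49 and -0.51 (limma adjusted p = 0.0323 and 0.0347). DERA, the deoxyribose-phosphate aldolase, fell with EEDS (slope -0.46, limma adjusted p = 0.0317), and its helveticoside slope was -0.37 (limma adjusted p = 0.0590). PGM2, which interconverts ribose 1-phosphate and ribose 5-phosphate, fell with helveticoside (slope -0.52, limma adjusted p = 0.0368), and its EEDS slope was -0.38 (limma adjusted p = 0.0641). TIGAR, a bisphosphatase known to favour flow into the pentose phosphate pathway, rose with helveticoside (slope 0.38, limma adjusted p = 0.0465), and its EEDS slope was 0.23 (limma adjusted p = 0.117). Its signal was 532 with the EEDS vehicle and 847 at 20 µg/mL, and 502 with the helveticoside vehicle and 1011 at 60 nM. RBKS, ribokinase, also fell with both agents and was named after its values were seen.

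Of 9 genes that use PRPP or bind its synthetases, 2 fell and 0 rose in each trend. The shares of all genes that fell and rose were 7.85% and 7.27% with EEDS and 5.8% and 5.48% with helveticoside. NAMPT, which makes nicotinamide mononucleotide from PRPP, fell with slopes of -0.88 and -1.13 (limma adjusted p = 0.0395 and 0.0289). Its signal was 3809, 1990, 769 and 681 over the EEDS arrays and 4021, 3380, 710 and 502 over the helveticoside arrays. PRPSAP1, a regulatory partner of the synthetases, fell with slopes of -0.48 and -0.33 (limma adjusted p = 0.0151 and 0.0326).

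Of 10 genes of other NADPH-making enzymes, 1 fell and 0 rose in each trend, beside 7.85% and 7.27% of all genes with EEDS and 5.8% and 5.48% with helveticoside. MTHFD1, a folate enzyme of one-carbon metabolism, fell with slopes of -0.44 and -0.33 (limma adjusted p = 0.0190 and 0.0368). IDH1, the cytosolic isocitrate dehydrogenase, was named after its values were seen: it was 10.7-fold lower at 20 µg/mL and 7.83-fold lower at 60 nM, and its slopes did not pass (limma adjusted p = 0.0583 and 0.0952). MTHFD2, a mitochondrial folate enzyme also named after its values were seen, had top-dose log2 ratios above 0, 1.11 and 1.20, and did not pass either (limma adjusted p = 0.414 and 0.282). The median slopes of these 10 genes were -0.09 for EEDS and 0.10 for helveticoside. Of 12 known NRF2 targets outside the pathway, 11 were matched to a probe. Of these, 2 fell and 0 rose with EEDS, and 1 fell and 0 rose with helveticoside. The same shares of all genes, 7.85% and 7.27% with EEDS and 5.8% and 5.48% with helveticoside, stand beside these counts. GCLC, the catalytic subunit of glutamate-cysteine ligase, fell with slopes of -0.51 and -0.52 (limma adjusted p = 0.0144 and 0.0175). GCLM, its modifier subunit, fell with EEDS (slope -0.33, limma adjusted p = 0.0205), and its helveticoside slope was -0.15 (limma adjusted p = 0.140). The median slopes of these 11 genes were -0.26 and -0.19, beside 0.01 and -0.01 over all genes. Of the 11 slopes, 9 were below 0 with EEDS and 8 with helveticoside. Over all genes, 45.3% and 50.9% had top-dose ratios below 0, a different measure from the slope. The list was chosen with earlier results of these data known, and a part of NRF2 was not tested. TXNRD1, named after its values were seen, went the other way with slopes of 0.28 and 0.20 and did not pass (limma adjusted p = 0.0601 and 0.141).

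**Figure D3:**
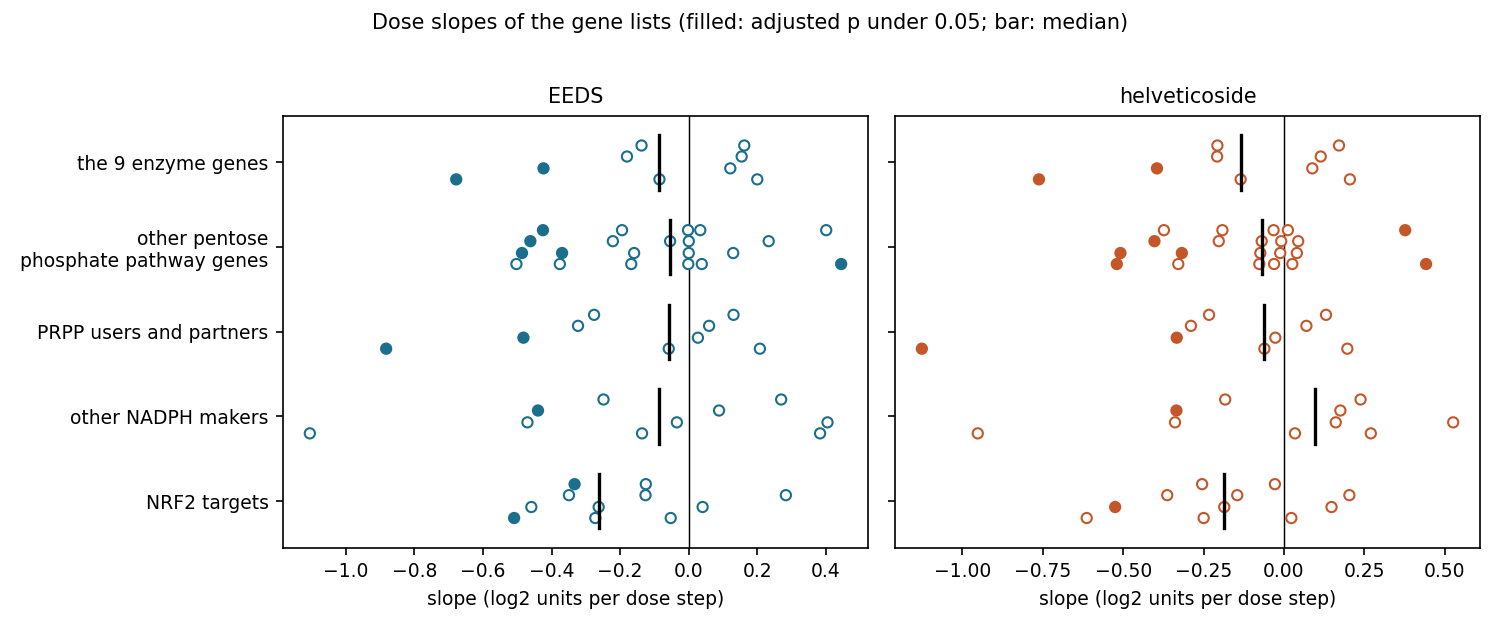
Each point is the dose slope of 1 gene in log2 units per step, for EEDS (left) and helveticoside (right), by gene list; filled points passed an adjusted p of 0.05 and bars are medians. In every list most points are open, and the medians lie between -0.26 and 0.10.

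Some markers of other cell types had lower signals at the doses at which PGD and PGLS did. The summed signal of the 4 leukocyte markers was 7794, 6073, 3420 and 3255 over the EEDS arrays and 9992, 10422, 6778 and 5173 over the helveticoside arrays. Between vehicle and top dose, CD79A went from 4828 to 2140 and from 7312 to 4460, and CD14 from 2824 to 951 and from 2500 to 515. PTPRC, found on all leukocytes, went the other way, from 117 to 134 and from 135 to 155, and the T cell marker CD3E was not well above background on any array. The summed fibroblast markers went from 342 to 585 and from 253 to 405, and the endothelial ones from 148 to 157 and from 206 to 234. The summed epithelial markers ranged from 770621 to 901594 and from 695386 to 737610. Between vehicle and top dose, only KRT7 among them rose in both series, from 383250 to 587250 and from 329250 to 474625. CDH1 went from 963 to 148 and from 825 to 126, and KRT19 from 31456 to 8427 and from 26888 to 8179. KRT8 went from 65796 to 38444 and from 45271 to 27196, and KRT18 from 397375 to 266637 and from 334750 to 226544. EPCAM went from 666.5 to 688 and from 627 to 524. Every array held RNA from cultures of the A549 line, and the part of these markers in the results for PGD and PGLS was not tested.

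**Figure D4:**
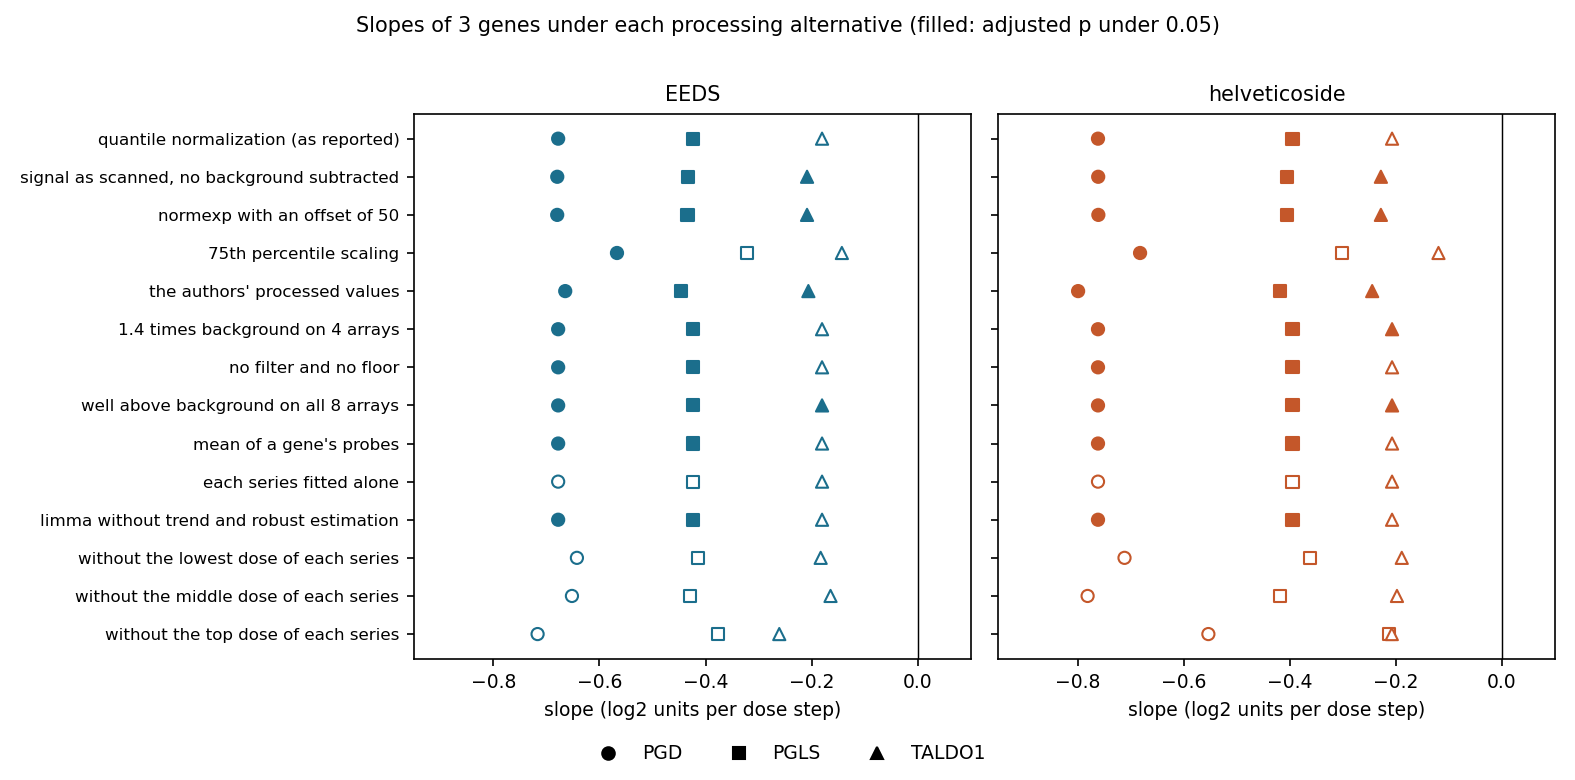
Slopes of PGD, PGLS and TALDO1 in log2 units per dose step (horizontal axis) under each processing alternative (rows), for EEDS (left) and helveticoside (right); filled symbols passed an adjusted p of 0.05. All slopes lie below 0, with PGD between -0.72 and -0.57 for EEDS and between -0.80 and -0.55 for helveticoside, and no symbol is filled where fewer arrays entered the fit.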

How the data were processed

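The authors hybridized pooled A549 RNA, labelled with a single dye, to 1 Agilent array per dose and deposited, for every spot, intensity values from the scanner software (median, local background and background-subtracted signal) with its spot calls. They also deposited 1 table of normalized intensity values that are not on a log scale. The scanner files carry no scan date or slide.

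After removal of control spots and of outlier spots, the background-subtracted signal was averaged per probe, quantile-normalized across the 8 arrays and expressed as log2. Probes were named through their accessions in RefSeq tables of GRCh38.p14 (24812 of the 34105 probes usable on all 8 arrays, 19056 genes). The brightest probe stood for a gene. A gene was kept (19046) when it reached 1.4 times the local background on 1 or more arrays of each series. Values under that limit were raised to the lowest detected signal of the array. A probe not well above background on one array gives a bound only.

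The trend test used limma 3.58.1 under R 4.3.3, with statmod 1.5.0 for its robust option and with the mean-variance trend on. Each series had its own intercept and slope, which left 4 residual degrees of freedom. The p-values measure the spread of single arrays, each a pool of 3 cultures, about these lines. The fit was tested on simulated data. Python 3.11.15, numpy 2.4.6, pandas 2.3.3 and matplotlib 3.10.9 did the rest.

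The 9 genes and the other lists were chosen with earlier results of these data known. Named besides the 9 were, from each other list, at most 6 genes of largest absolute slope with an adjusted p under 0.05 for either agent, and the 5 genes most like PGD. RBKS, PFKL, IDH1, MTHFD2, TXNRD1 and the cell type markers lie outside this rule. Some genes of the pathway are not reported here. The alternatives changed the background correction, the scaling, the filter, the choice of probe, the source of the values, the fit and the doses included.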

Additional observations from a re-analysis of the deposited data

How the results depend on the processing

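Of 232 alternative values for the slopes of the 9 genes, 204 kept their direction and their side of the threshold, and none of the slopes changed direction. Alternatives in the filter or the variance estimate, and fitting each series alone, left the slopes unchanged and cannot test their direction. Genes that did not pass also counted as kept in the fits where limma called 0 of all genes. The number of genes with a falling trend, 2 for each agent, became 3 (TALDO1 added) under 4 alternatives for EEDS and 5 for helveticoside, and 1 (PGD) with 75th percentile scaling for both agents. It became 0 with each series fitted alone and 0 without the lowest, the middle or the top dose of each series, where limma called 0 of all genes, while 3259 to 5400 had an unadjusted p under 0.05; these fits have fewer residual degrees of freedom. The number with a rising EEDS trend went from 0 to 1 (PRPS1) with 75th percentile scaling. The median ratio of the 9 genes at 20 µg/mL EEDS moved from -0.15 to -0.47 with that scaling. Adjusted p ranged from 0.00508 to 0.209 for the EEDS slope of PGD and from 0.00495 to 0.287 for its helveticoside slope. For PGLS the ranges were 0.00781 to 0.208 and 0.0148 to 0.367, for TALDO1 0.0285 to 0.220 and 0.0293 to 0.322. Over all genes, 1495 of 19046 fell with EEDS and 2621 of 18200 with the authors' processed values, while for helveticoside 1104 fell and 871 did. The cause of these shifts was not tested. No slope difference passed under any alternative in which it was fitted. No paired analysis was possible because each dose had 1 array. Signal over background limits H6PD most.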
